A study of Mus musculus with 2 samples.

Results

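The 10 genes described here encode proteins of the smooth muscle contractile apparatus: Acta2, Tagln, Myh11, Cnn1, Des, Actg2, Myl9, Mylk, Lmod1 and Smtn. They were chosen by name, with earlier results of these data known. All probes on the array whose RefSeq transcript belongs to 1 of them were taken. This gave 11 probes for 10 of the 20658 genes that could be paired with a symbol. RNA came from mouse ovaries taken at 2 weeks of age, and half-portions of them were kept in culture for 3 days. The medium held agonists of the tachykinin receptors (TKR) or TKR antagonists at 1 μM each, and 1 single-colour array was hybridised for each group. The agonists were [Sar9, Met(O2)11]-SP for TACR1, GR-64349 for TACR2 and a succinylated, modified 6-11 fragment of substance P for TACR3. The antagonists were L-703,606 for TACR1, GR-94800 for TACR2 and SB218795 for TACR3. Neither the strain of these mice nor the number of ovaries behind each RNA is given in the sources used here, and untreated ovaries were not analysed here.

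Smooth muscle contracts when myosin light chain kinase phosphorylates the regulatory light chain of myosin, so that the myosin heads pull on filaments of smooth muscle actin. Many genes of this apparatus are controlled by serum response factor (SRF), which binds CArG boxes in their promoters, and by its partners of the myocardin family. In the ovary, smooth muscle lies in the walls of vessels and in the outer layer of the theca, and pericytes share part of the same gene set. Tachykinins are known to contract smooth muscle in several organs.

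A single array per group leaves the spread between ovaries unknown, so no test was made and each difference is given with the error of its spots. A probe is a short sequence that captures 1 transcript, and its processed signal is the spot brightness after the scanner software's background correction. The criterion of the software for signal well above background was met by 65.4% of the 59305 spots with the agonists and 61.6% with the antagonists. The log2 ratio is the log2 signal of the agonist array minus that of the antagonist array, each taken relative to the 75th percentile of its array (672 and 569 signal units). Over the 15258 named genes well above background on both arrays, each represented by its brightest probe, the log2 ratios had a median of -0.10 and an SD of 0.48. All 10 granulosa cell markers listed were well above background on both arrays. So were 15258 of the 20658 named genes, which makes this a weak check of the tissue label.

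Of the 10 contractile genes, 8 were well above background on both arrays, and all 8 had a higher scaled signal with the TKR agonists, against 37.7% of all genes with a log2 ratio above 0. Their median log2 ratio was 0.65, or 1.57-fold, which lay 0.74 above the median of all genes. Only Actg2 was at least 2-fold higher, 1 of 8 genes against 4.01% of all genes, and 0 of 8 were at least 2-fold lower, against 0.577%. By probe, 9 of 9 were above 0 against 36.9% of the 33073 probes measured on both arrays, 1 of 9 was at least 2-fold higher against 2.69%, and 0 of 9 at least 2-fold lower against 0.705%. Of the remaining genes, Des was well above background with the agonists and at the limit with the antagonists, and Lmod1 was not well above background on either array. In whole tissue, a change in the number of smooth muscle cells and a change in RNA per cell cannot be told apart.

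**Figure D1:**
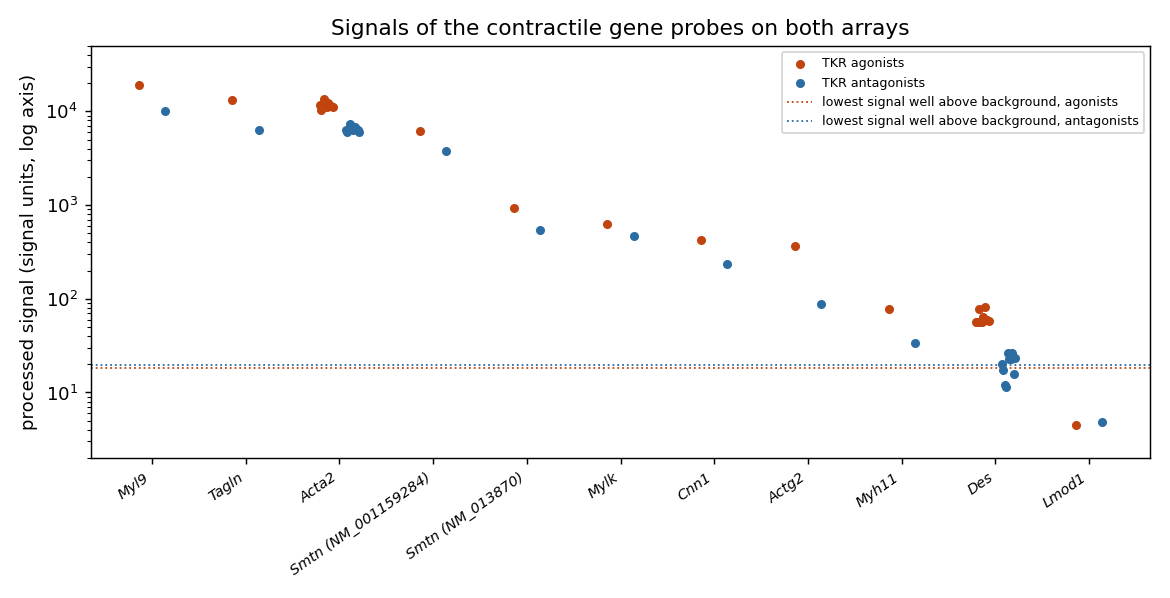
Processed signal (log axis) of every probe of the 10 contractile genes on the agonist array (orange) and the antagonist array (blue), 1 point per spot; the dotted lines mark the lowest signal well above background on each array. For every gene except Lmod1 the agonist points lie above the antagonist points; heights of different probes are not comparable with each other.

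The smooth muscle actins were both higher with the agonists, and by different amounts. Acta2, which encodes smooth muscle α-actin, was measured by 1 probe for NM_007392 printed at 10 spots. With the agonists its processed signals ran from 10369 over a median of 11472 to 13493, with a mean of 11659 ± 830 (SD over 10 spots). With the antagonists they ran from 6042 over a median of 6438 to 7343, with a mean of 6501 ± 388 (SD over 10 spots). The spots of the arrays did not overlap, and after scaling the nearest pair of spots was still 0.26 apart on the log2 scale. The log2 ratio of Acta2 was 0.60, or 1.52-fold, and its 10 spots ranged from 0.53 to 0.66 (SD 0.038). Among the 284 probes printed 10 times and well above background at all spots, the median SD of the log2 ratio between spots was 0.074. These SDs describe the printing and reading of a spot and not the spread between ovaries.

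Actg2 encodes smooth muscle γ-actin, the actin isoform typical of visceral rather than vascular muscle. Its single spot for NM_009610 gave 368 with the agonists and 87.6 with the antagonists, both well above background. This is a log2 ratio of 1.83, or 3.55-fold, with an error of 0.22 from the error estimates of the software for both spots. Of all probes well above background on both arrays, 0.550% had a log2 ratio at least as high. The log2 ratio of Actg2 exceeded that of each of the 7 other members measured on both arrays by more than the combined error of the pair, and for Acta2, the other smooth muscle actin, the difference from Actg2 was -1.23.

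The promoters of the genes are shown because SRF sites are the sequence feature best known to be shared by this gene set. RefSeq promoter sequences (GRCm38.p6, 250 bases before to 50 after the annotated start) were at hand for 7 members, and were searched for the CArG box, which reads CC, then 6 bases that are each A or T, then GG, and is its own reverse complement. An exact box occurred in the promoter of 1 of the 7 members, Myl9, and in 1.63% of all 32851 promoters. With 1 of the 6 inner bases allowed to be C or G, 2 of the 7 members had a box, Acta2 and Myl9, against 9.98% of all promoters, and each had 2 of them, against 0.822%. In Acta2 the boxes began 84 and 34 bases before the annotated start (chr19:34255324-34255623, minus strand). In Myl9 they began 161 and 99 bases before it (chr2:156775214-156775513, plus strand), and the first is the exact box. Both promoters are printed in the direction of transcription with the boxes in capitals.
Acta2: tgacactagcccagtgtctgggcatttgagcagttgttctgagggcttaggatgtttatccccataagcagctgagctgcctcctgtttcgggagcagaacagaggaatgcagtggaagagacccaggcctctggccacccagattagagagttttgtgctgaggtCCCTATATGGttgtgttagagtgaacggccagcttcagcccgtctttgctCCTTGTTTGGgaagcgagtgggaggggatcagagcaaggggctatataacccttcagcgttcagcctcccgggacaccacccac
Myl9: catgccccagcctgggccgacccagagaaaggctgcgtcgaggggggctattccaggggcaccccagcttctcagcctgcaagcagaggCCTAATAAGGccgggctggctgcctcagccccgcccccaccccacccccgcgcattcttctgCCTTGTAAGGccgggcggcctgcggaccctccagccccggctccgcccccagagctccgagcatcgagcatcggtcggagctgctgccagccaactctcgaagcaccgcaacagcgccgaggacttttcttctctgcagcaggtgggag
A match of letters is a description of these windows only. The promoters of Cnn1, Des, Lmod1, Mylk and Smtn held no such letters within the same 300 bases.

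Myosin and the kinase that activates it were represented by 3 genes. Myh11, the smooth muscle myosin heavy chain and the most specific marker of mature smooth muscle in the set, gave 78.5 with the agonists and 33.5 with the antagonists at its single spot for NM_001161775. Its log2 ratio was 0.99, or 1.98-fold, with a spot error of 0.28, the largest error of the 8 genes. The antagonist signal was near the lowest value well above background on that array (19.9 signal units). The log2 ratio was 0.28 with the normexp background correction, which adds an offset of 50 to every signal and so weighs most on dim ones. Myl9, a regulatory light chain of smooth muscle myosin, was far above background, with 19366 and 10214 signal units, a log2 ratio of 0.68, or 1.60-fold, and an error of 0.20. Mylk, the kinase that phosphorylates this light chain, had the smallest ratio of the set. Its signals of 631 and 463 gave a log2 ratio of 0.20, or 1.15-fold, about the size of its spot error of 0.20. The ratio of Mylk stayed above 0 under every setting tried.

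Of the genes for actin-binding proteins, 3 were measured on both arrays and all 3 were higher with the agonists. Tagln, which encodes the calponin-related protein SM22α, gave signals of 13253 (agonists) and 6390 (antagonists), and its log2 ratio was 0.81 with an error of 0.20, or 1.75-fold. Cnn1, which encodes calponin 1, a thin filament protein that restrains myosin ATPase, gave 423 and 233, a log2 ratio of 0.62 with an error of 0.21. Both differences exceeded the error of their spots. Smoothelin, a cytoskeletal protein of contractile smooth muscle encoded by Smtn, was the only member with 2 probes. The brighter probe, for NM_001159284, gave 6217 and 3755, and the dimmer probe, for NM_013870, gave 937 and 543. Their log2 ratios of 0.49 and 0.55 differed by less than the error of either, 0.20. Lmod1, which encodes the actin filament nucleator leiomodin 1, gave 4.52 and 4.79 and was not well above background on either array, so no ratio is given for it.

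Des encodes desmin, the intermediate filament protein of muscle cells and pericytes, and its probe for NM_010043 was also printed at 10 spots. With the agonists all 10 spots were well above background, with signals from 55.9 over a median of 58.2 to 81.4. With the antagonists 5 of the 10 were, with signals from 11.4 over a median of 21.6 to 26.7. No Des spot of the antagonist array was as bright as any agonist spot, and the scaled gap between the nearest pair was 0.82 on the log2 scale. A probe had to pass the background criterion at more than 50% of its spots, and Des did not on the antagonist side. Its fold is therefore given against a stand-in value and is called its bound. With the agonists its signal was at least 2.63-fold higher when the lowest signal well above background on the antagonist array stood in for its dim value. At face value its log2 ratio was 1.45, with spots between 0.86 and 2.45. The bound was 1.28-fold with the normexp correction and lay between 2.28-fold and 3.19-fold under the other settings.

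**Figure D2:**
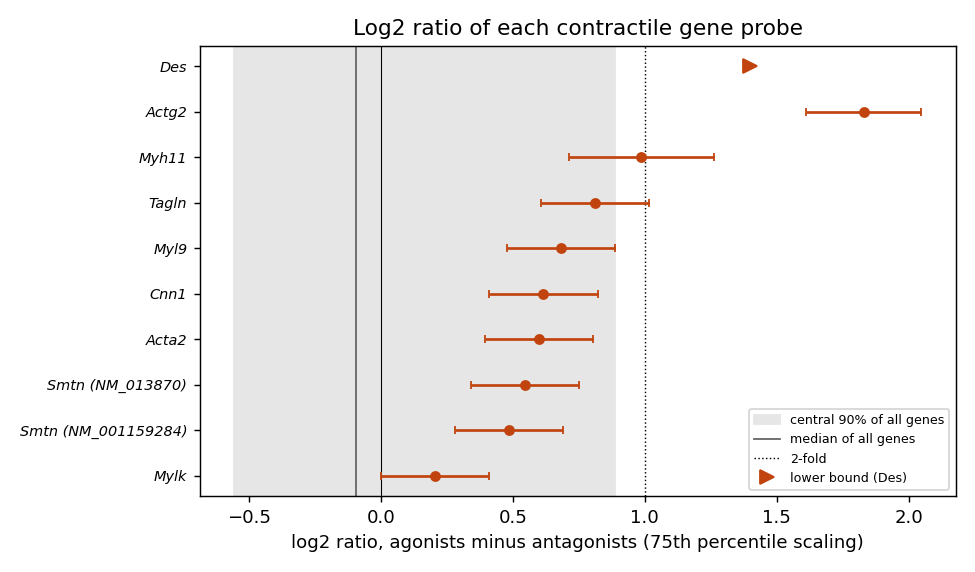
Log2 ratio (agonists minus antagonists) of the 9 contractile gene probes well above background on both arrays, with bars of ± 1 software error of the spots. The triangle is the bound of Des against a stand-in for its dim antagonist signal and is not a strict lower limit. All 9 points lie above the median of all genes (-0.10). Actg2 lies beyond the 2-fold line, and so does the triangle of Des. Des passed the background criterion with the agonists only, so its bound could only be taken in that direction. Des was left out of the main count of genes at least 2-fold higher. The bar of Mylk ends close to 0, and the grey band spans the 5th to the 95th percentile of all genes.

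In order of log2 ratio the genes ran Actg2, Myh11, Tagln, Myl9, Cnn1, Acta2, Smtn and Mylk. Of the neighbours in this order, Actg2 and Myh11 were the only pair whose difference (Myh11 minus Actg2, -0.84) exceeded their combined spot error of 0.35. Of all 28 pairs, 16 differed by more than that error. The error of a gene is the software's estimate, 0.20 for both Acta2 and Myl9, while the 10 Acta2 spots had an SD of 0.038. Neither value measures the spread between ovaries. Among Tagln, Myl9, Cnn1 and Acta2 the widest difference, Acta2 minus Tagln, was -0.21, less than its combined error of 0.29. Against the whole array, log2 ratios at least as high were found for 2.78% of probes in the case of Myh11, 4.01% for Tagln, 5.51% for Myl9, 6.46% for Cnn1, 6.69% for Acta2 and 19.3% for Mylk. Only Actg2 and Myh11 lay above the 95th percentile of all genes, 0.89.

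**Figure D3:**
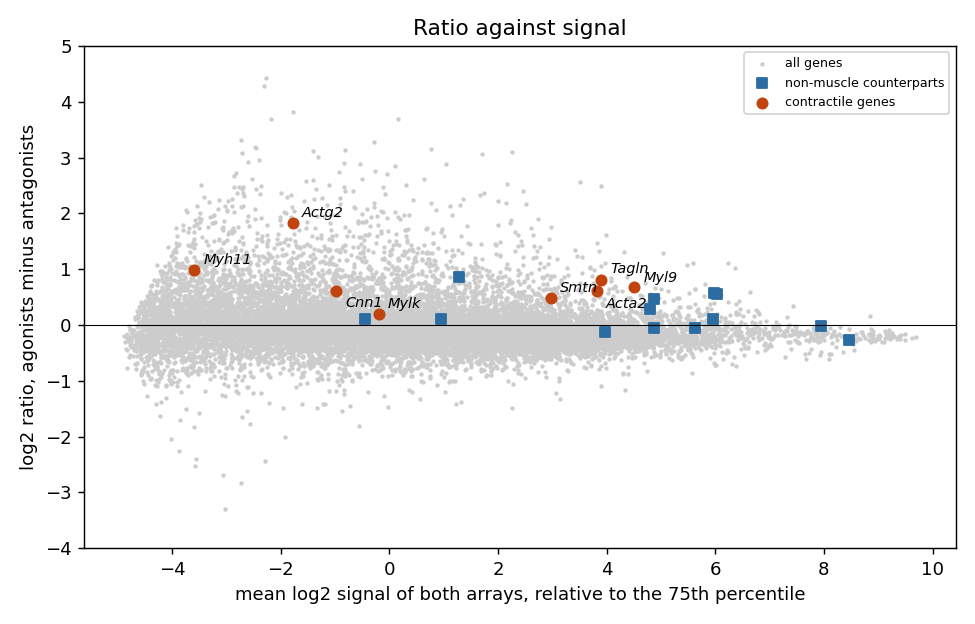
Log2 ratio (agonists minus antagonists) against the mean log2 signal of both arrays, relative to the 75th percentile, for all 15258 genes well above background on both arrays (grey), the contractile genes (orange) and the non-muscle counterparts (blue). The 8 contractile genes span the range from dim (Myh11) to bright (Myl9) and all lie above 0.

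Many of these proteins have a counterpart that non-muscle cells use in their cytoskeleton, which gives a comparison within the same families. Of 13 such genes, all well above background on both arrays, 8 had a log2 ratio above 0 and 5 below, against 37.7% of all genes above 0. Their median was 0.10, and 11 of the 13 lay above the median of all genes. None differed by 2-fold in either direction, against 4.01% of all genes higher and 0.577% lower. The cytoplasmic actins had log2 ratios of -0.01 (Actb) and -0.26 (Actg1), and the non-muscle light chains of -0.05 (Myl12a) and -0.12 (Myl12b). With spike-in scaling all 4 were above 0 instead. Acta2 exceeded Actb by 0.61, Actg2 exceeded Actg1 by 2.09 and Myl9 exceeded Myl12a by 0.73 and Myl12b by 0.80 on the log2 scale, each more than the combined spot error, and these differences do not depend on how the arrays are scaled to each other by a constant.

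The non-muscle myosin heavy chains had log2 ratios of 0.29 (Myh9), 0.10 (Myh10) and 0.10 (Myh14). Myh11 lay 0.69 above Myh9 and 0.89 above Myh10, but with the normexp correction these differences were -0.03 and 0.19. Among the calponins, Cnn2 had a log2 ratio of 0.87 and Cnn3 of -0.05, the latter above 0 with spike-in scaling. Cnn1 was 0.67 above Cnn3, while Cnn1 minus Cnn2, -0.25, was within the combined error of 0.29, and a dimmer probe of Cnn2, at 0.47, lay below Cnn1. Tagln2 had 0.57, and Tagln exceeded it by 0.24, also within the combined error of 0.29. The intermediate filament gene Vim had 0.56, and the tropomyosins Tpm3 and Tpm4 had 0.11 and 0.46, with -0.20 at a dimmer probe of Tpm3.

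The regulators of the contractile genes varied widely among themselves. Of 12 SRF partners and related factors, 11 were well above background on both arrays. Of these, 8 were above 0 and 3 below, against 37.7% of all genes above 0, and their median log2 ratio was 0.08. The largest difference was that of Myocd, which encodes myocardin, the SRF coactivator of smooth muscle. Its signals were 464 (agonists) and 179 (antagonists), and its log2 ratio was 1.13 with an error of 0.21. The next largest of this list were Fhl2 (0.59), Mef2c (0.44) and Csrp1 (0.40). The rest were Csrp2 (0.15), Mrtfb (0.08), Fhl1 (0.03), Mrtfa (0.02), Tead1 (-0.08), Klf4 (-0.12) and Srf (-0.14). Dimmer probes gave -0.09 for Mrtfa, -0.13 for Tead1 and -0.13 for Srf.

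Genes that set the phosphorylation of myosin, or relax the muscle, had a median log2 ratio of -0.13, which became positive when the arrays were left unscaled or were scaled by spike-ins or cyclic loess. Of 14 genes, 5 were above 0 and 9 below, near the share of all genes above 0, 37.7%. The exception in size was Ppp1r14a, which encodes CPI-17, an inhibitor of myosin phosphatase found mainly in smooth muscle. Its signals of 1159 and 362 gave a log2 ratio of 1.44 with an error of 0.20. On the relaxing side, Gucy1a1, a subunit of the nitric oxide receptor guanylyl cyclase, had 0.65, and Prkg1, the kinase activated by its product, had 0.61. Ppp1r12b, a targeting subunit of myosin phosphatase, had -0.80 at dim signals of 22.0 and 32.5.

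Among 14 genes of the thin filament, dense body and adhesion sites, 11 were above 0 and 3 below, against 37.7% of all genes above 0. Their median log2 ratio was 0.20. Pdlim3, which encodes a PDZ and LIM domain protein that binds α-actinin, stood far from the rest with signals of 879 and 140, a log2 ratio of 2.40 with an error of 0.21. Tpm2, the β-tropomyosin of muscle, had 0.99, and a second probe for it had 1.03. Cald1, which encodes the actin and myosin binding protein caldesmon, had 0.60, and Itga8, an integrin subunit, 0.37.

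Of 14 genes of calcium handling, 9 were well above background on both arrays, 6 of them above 0, against 37.7% of all genes. Their median log2 ratio was 0.13. The channel gene Trpc6 had 1.04, the large-conductance potassium channel gene Kcnma1 0.79 and the calcium store gene Casq2 0.74. Dimmer probes of Kcnma1 gave 0.19 and 0.52. Cacnb2 had -0.83 at its brighter probe and -0.11 at another. Pln, which encodes phospholamban, the inhibitor of the calcium pump of the store, was well above background with the agonists only. Its bound, taken as for Des, was 2.20-fold, or 1.24-fold with the normexp correction.

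Of 12 receptors for substances that contract smooth muscle, 7 were well above background on both arrays, 6 of them above 0, against 37.7% of all genes. Their median log2 ratio was 0.92, and it was -0.04 when only bright genes were kept. Tbxa2r, the thromboxane receptor, gave 402 and 82.7, a log2 ratio of 2.04 with an error of 0.22. Htr2b, a serotonin receptor, gave 352 and 72.8, a log2 ratio of 2.03 with an error of 0.22. The angiotensin receptor gene Agtr1a had 0.93, the endothelin receptor gene Ednrb 0.92 and the oxytocin receptor gene Oxtr 0.82. The brightest of the 7, Ednra and Adra1b, had 0.11 and -0.19, with -0.64 at a dimmer probe of Adra1b. Ptgfr, the prostaglandin F receptor gene, was not well above background on either array. These lists differ in length and signal, so their medians are descriptions of their members.

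**Figure D4:**
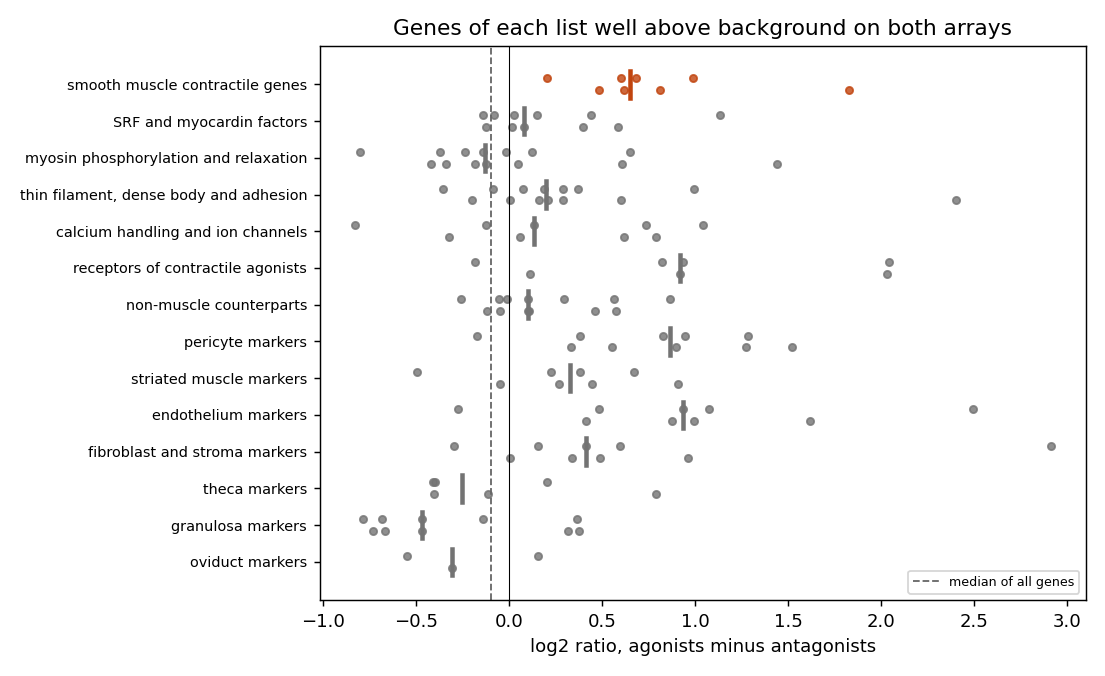
Log2 ratio (agonists minus antagonists) of each gene well above background on both arrays, by list, with the median of each list as a vertical bar; the dashed line is the median of all genes (-0.10). The contractile genes (orange) all lie to the right of 0, as do 9 of 10 pericyte markers and 8 of 9 endothelium markers. Of all genes, 37.7% had a log2 ratio above 0, and 3 of 10 granulosa cell markers, near that share, lie to the right.

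Markers of other cell types that an ovary holds were also higher or lower, and their values are given beside those of the contractile genes. Summed signals of a list are before scaling, and the log2 ratio of the sums after scaling was 0.67 for the contractile genes. Of 10 pericyte markers, 9 were above 0, with a median log2 ratio of 0.86, and 3 were at least 2-fold higher. In this paragraph such counts stand against 37.7% of all genes above 0 and 4.01% at least 2-fold higher. Abcc9 and Rgs5, genes of vessel mural cells, had 1.52 and 1.27, Higd1b had 1.29 and Anpep 0.94. The exception was Mcam, at -0.17 for its brighter probe, and another probe of Mcam gave 0.83. The signals of this list summed to 70128 (agonists) and 59174 (antagonists, log2 ratio of the sums 0.0034), of which Mcam gave 53877 and 51271. Of 9 endothelium markers well above background on both arrays, 8 were above 0, with a median of 0.93 and summed signals of 51893 and 35284 over the 10 listed genes (log2 ratio of the sums 0.31). Vwf, the von Willebrand factor gene, had 2.49, Tie1 1.62, Cldn5 1.07 and Esam 0.99. Lower values were those of Emcn (0.93), Cdh5 (0.88), Pecam1 (0.48) and Egfl7 (0.41). Kdr, the exception, had -0.27 at its brighter probe and 0.38 at another. Tek, well above background with the agonists only, had a bound of 4.10-fold, or 1.60-fold with the normexp correction. Of 9 fibroblast and stroma markers, 8 were above 0, with a median of 0.41 and summed signals of 281447 and 198123 (log2 ratio of the sums 0.26). Mfap5 had 2.91, Fbln1 0.96, Pdgfra 0.60 and Col1a1 0.49. Lower values were those of Col3a1 (0.41), Dcn (0.34), Col1a2 (0.15) and Nr2f2 (0.0068), and Lum, the exception, had -0.30. Dpt, also well above background with the agonists only, had a bound of 2.90-fold, or 1.48-fold with the normexp correction. No log2 ratio of these 3 lists was exactly 0, but that of Nr2f2 was far smaller than its error of 0.20. The part of vessel and stroma cells in the higher contractile genes was not tested.

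Follicle markers had shares above 0 near that of all genes, 37.7%. Of 10 granulosa cell markers, 3 were above 0 and 7 below, with a median log2 ratio of -0.47 and summed signals of 112552 with the agonists and 109642 with the antagonists (log2 ratio of the sums -0.20). Fst had -0.78, Fshr -0.73, Inha -0.68 and Amh -0.67. The 3 above 0 were Amhr2 (0.38), Cyp19a1 (0.37) and Foxl2 (0.32, with -0.37 at a dimmer probe). Of 6 theca markers well above background on both arrays, 2 were above 0 and 4 below, with a median of -0.26 that became positive with spike-in scaling and when only bright genes were kept. Cyp17a1, the androgen-forming enzyme of the theca, had -0.41, Ptch1 -0.41, Star -0.40 (0.01 at a dimmer probe) and Cyp11a1 0.79, and the summed signals were 62594 and 52822 (log2 ratio of the sums 0.0033). Lhcgr was not well above background on either array.

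Striated muscle was checked because it shares actin and myosin families with smooth muscle. Of 16 striated muscle markers, 8 were well above background on both arrays, and their median log2 ratio was 0.33. The signals of all 16 summed to 1426 (agonists) and 949 (antagonists, log2 ratio of the sums 0.35). Of the 16, 7 were not well above background on either array, among them Actc1, Myh1, Myh4 and Ckm. Other genes of cardiac or skeletal muscle were well above background on both arrays. Of these, Myh7 had a log2 ratio of -0.05, Mb 0.27, Lmod3 0.22 and Mylk2 0.38. Acta1, the skeletal actin, had signals of 651 and 405 and a log2 ratio of 0.44, Myh6 had 0.91, Tnni2 0.67 and Tnnc2 -0.50. The oviduct, which has a muscular wall and lies against the ovary, was represented by 5 markers. Of these, 3 were well above background on both arrays, Ovgp1 with -0.55, Foxj1 with -0.31 and Dynlrb2 with 0.16, and the median was -0.31. The summed signals over all 5 were 354 and 321 (log2 ratio of the sums -0.10).

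**Figure D5:**
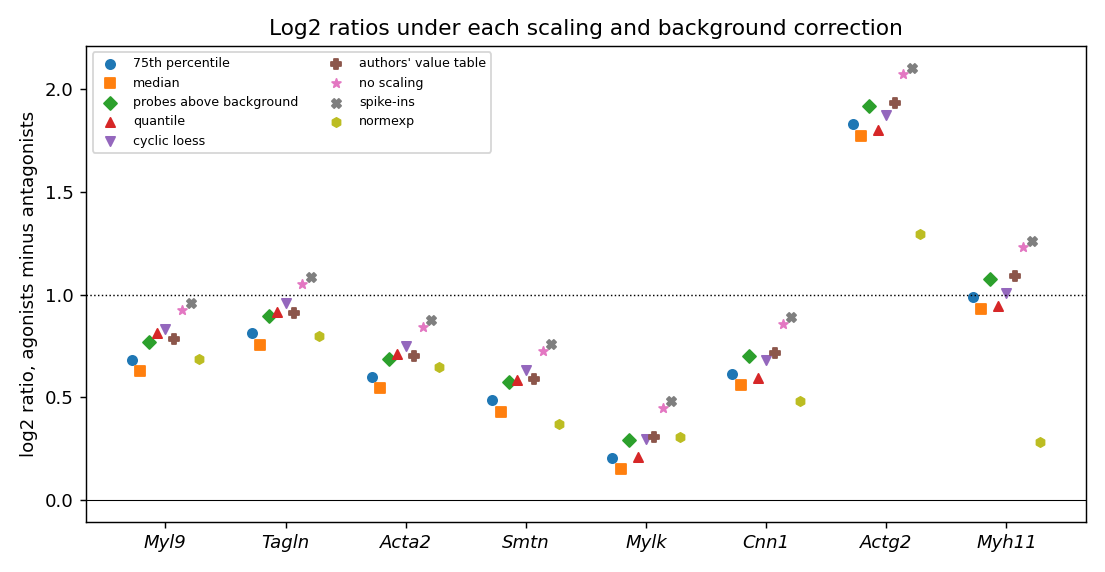
Log2 ratio (agonists minus antagonists) of the 8 contractile genes under 9 choices of scaling between arrays and background correction; the dotted line marks a 2-fold difference. Every point lies above 0; the normexp correction gives the lowest values of Myh11 and Actg2, 0.28 and 1.29.

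The level of each array against the other sets the size of these ratios. The median log2 ratio of all genes was 0.15 with no scaling, and 0.18 with scaling on the E1A spike-ins, synthetic RNAs added before labelling, so it moved by more than 0.1. Under these settings the number of contractile genes at least 2-fold higher was 3, with Myh11 and Tagln joining Actg2. Relative to the median of all genes in the same setting, the median of the contractile genes was higher by between 0.66 and 0.81, and all members well above background on both arrays lay above it. Over the settings Acta2 ranged from 0.54 to 0.88, Tagln from 0.75 to 1.09, Myl9 from 0.63 to 0.96, Cnn1 from 0.48 to 0.89, Smtn from 0.37 to 0.76, Mylk from 0.15 to 0.48, Actg2 from 1.29 to 2.10 and Myh11 from 0.28 to 1.26.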

How the data were processed

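Cy3-labelled cRNA of each group was hybridised to an Agilent SurePrint G3 mouse array, 1 array per group on 1 slide. The authors deposited the spot intensity of each array from Agilent Feature Extraction 10.10.1.1, background-corrected and not scaled between arrays, with the software's 0 or 1 score for each spot on outliers, saturation and background. A value table from the authors was found to equal the processed intensity times a constant for each array.

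Control spots and outlier spots were left out, log2 signals were reduced by the 75th percentile of their array and spots of the same probe were averaged. Of 55674 probes, 27230 were paired with a symbol through RefSeq transcripts (GRCm38.p6, for names and promoters; the array was designed on mm9). A gene was represented by its brightest probe. The software error of a log2 ratio combines the relative errors of both spots. The members and lists were chosen with earlier results of these data known. Named genes were all members and non-muscle counterparts. In each other list they were the up to 4 largest absolute log2 ratios plus bounds of at least 2-fold. Mcam, genes below background and further SRF-related, receptor, endothelium, stroma, granulosa and striated muscle genes were added after their values were seen. The number of arrays limits the precision, and no test was made. Alternatives were other scalings, the authors' values, normexp (offset 50), medians over spots, means over probes, and different filters and fold thresholds. The calculation was tested on simulated data. Python 3.11.15, numpy 2.4.6, pandas 2.3.3, R 4.3.3 and limma 3.58.1 were used.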

Additional observations from a re-analysis of the deposited data

How the results depend on the processing

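No paired analysis was possible because only 1 array was made for the agonists and 1 for the antagonists, without any test. No replicate could be left out. The median log2 ratio of the contractile genes, 0.65, was 0.89 without scaling and 0.92 with the spike-ins, and otherwise moved by less than the error of a spot. Their number at least 2-fold higher, 1, became 3 without scaling or with the spike-ins, 2 with scaling on probes above background, cyclic loess, the authors' values and no filter on dim probes, 0 with only bright genes or a 4-fold threshold, and 6 with a 1.5-fold threshold. With no filter, Des and Lmod1 enter; with only bright genes, 4 members were left.

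Of 1170 further values, 967 moved by less than their error, 170 moved by more and kept their sign, and 33 had the opposite sign. The last belong to 10 results. The myosin phosphorylation list had 0.11 with no scaling, 0.0077 with loess and 0.14 with spike-ins. The theca list had 0.020 with spike-ins and 0.046 with only bright genes, and the receptor list -0.037 with only bright genes. With no scaling, Actb had 0.23, Cnn3 0.19, Myl12a 0.19 and Myl12b 0.12. With spike-ins, Actb had 0.26, Actg1 0.014, Cnn3 0.22, Myl12a 0.23 and Myl12b 0.15. With scaling on probes above background, Actb had 0.074, Cnn3 0.033 and Myl12a 0.039. With quantiles, Actb had 0.16, Cnn3 0.093 and Myl12a 0.073. With loess, Actb had 0.17, Cnn3 0.10, Myl12a 0.11 and Myl12b 0.028. With the authors' values, Actb had 0.088, Cnn3 0.048 and Myl12a 0.053. With normexp, Actb had 0.023, Cnn3 0.020, Myl12a 0.062 and the difference of Myh11 from Myh9 was -0.025. Tpm3 had -0.049 as a mean over its probes. The median of all genes ran from -0.15 to 0.18 over the scalings. Scaling by a constant shifts every gene alike; for quantiles, loess, normexp and the other choices the cause was not tested. Signal over background limits Myh11, Des and Lmod1.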
